A study of Homo sapiens with 79 samples.

Results

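The RNAs recovered with EZH2 were compared with the RNAs of the starting lysate in K562, an established human erythroleukemia line. In fRIP-seq, cells are fixed lightly with formaldehyde, sheared and incubated with an antibody, and the RNA held with the targeted protein is sequenced. The comparison used the 2 EZH2 fRIP libraries (ezh2_1 and ezh2_2, for which the labels list the same Abcam antibody, although the protocol text common to all samples names one against HuR) and the 3 libraries of input set 3 (lysate RNA with no antibody), 5 of the 79 libraries of the series. These were chosen by their labels. The labels do not say which lysate served which fRIP, so that set 3 as the input of EZH2 is an assumption, and all 9 inputs (sets 1, 2 and 3) served as a check. All libraries came from untreated K562 cells of a low passage range fixed in the same way, and the other 68 fRIP libraries, of 23 proteins, were used only to show where EZH2 differed. EZH2 has duplicates where most other proteins have triplicates, and no fRIP without a specific antibody was analysed here.

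EZH2 is the catalytic subunit of Polycomb repressive complex 2 (PRC2), which methylates a lysine of histone H3 and is known for keeping developmental genes silent. SUZ12 and EED are its core partners, RBBP4 and RBBP7 bind histones, and JARID2, AEBP2, MTF2, PHF1, PHF19 and smaller factors define variants of the complex. PRC2 has been described as binding many RNAs with low sequence specificity and with a liking for runs of G, and EZH2 has no classical RNA-binding domain.

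Runs of G in the coding sequence are shown for 5 of the 12 mRNAs with the largest increase in the EZH2 fRIP, because runs of G recur in the results. GGGG was present at 9.65 per kb of coding sequence in PPP1R26, 11.9 in CHST2, 10.2 in MYCL and 8.35 in CENPB, but at 4.74 in ZBTB42, and TADA2B and ORAI2, which are not shown, had 4.76 and 1.31. Each is the stretch of 30 coding bases with the most bases in runs of at least 4 G, read 5′ to 3′ on the strand of the gene from hg19, with those runs in capitals. As the window was picked for its runs, its content is a description of where they lie and not a site. The PPP1R26 stretch lies at chr9:138379513-138379542 (plus strand), that of ZBTB42 at chr14:105267905-105267934 (plus), that of CHST2 at chr3:142840113-142840142 (plus), that of MYCL at chr1:40366950-40366979 (minus) and that of CENPB at chr20:3765801-3765830 (minus), all in coding exons.
PPP1R26: GGGGGcgtcgggagcgagagagacaaGGGG
ZBTB42: gtctggacccGGGGaaccctgcccctGGGG
CHST2: atggcactcGGGGcaccGGGGGcgtcGGGG
MYCL: cgccctGGGGcttgggtcccggcgcaGGGG
CENPB: aggaaGGGGGGGaaggagaggaattGGGGG
Over the whole transcript, GGGG was present at a median of 9.22 per kb in the 12 mRNAs with the largest increase, 5.95 per kb in all mRNAs called higher, 4.06 per kb in all 13566 tested mRNAs with an annotated sequence and 2.65 per kb in mRNAs called lower.

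At the other end of the scale stood ribosomal protein mRNAs, whose transcripts are known to begin with a tract of pyrimidines (the TOP motif). The first 25 transcribed bases in RefSeq (GRCh38.p14) are printed for 4 of them (on chromosomes 6, 15, 6 and X), with the tract in capitals. These 4 hold tracts of 9 to 19 bases, whereas the RefSeq starts of RPL11 and RPS28 did not begin with a tract.
RPS18: CTCTCTTCCacaggaggcctacacg
RPLP1: CCCCTTTCCTCagctgccgccaagg
RPS12: CTCTTTCCCTgccgccgccgagtcg
RPL39: CCCTCCTCTTCCTTTCTCCgccatc
A start with C in a run of at least 5 pyrimidines was found in 44 of the 67 ribosomal protein genes with an entry (65.7%) and in 4.04% of all 27305 RefSeq starts. Outside the ribosomal proteins it was present in 57 of 518 mRNAs called lower in EZH2 (11%) and in 506 of all 10064 tested mRNAs (5.03%), and the median log2 fold change of these 506 was -0.03, beside 0.03 for the 10064.

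The deposited values are FPKM (fragments per kilobase of transcript per M (mega) fragments), and fold changes are differences of log2(FPKM + 1), which understate the change of low RNAs. Depth, read from the FPKM that 1 fragment is worth, was 12.7 and 9.21 M fragments in the EZH2 libraries and 11.9 to 15.2 M in input set 3, so that 1 fragment weighed most in ezh2_2. The EZH2 libraries correlated with each other at 0.972 over the 25442 tested genes (Pearson's r of log2(FPKM + 1), a description across genes), the inputs of set 3 at 0.977 to 0.981, and EZH2 with input at 0.900 to 0.919. All 13 markers of the K562 lineage (GATA1, TAL1, globins, BCR, ABL1 and others) were detected. Of 12 defining markers of other cell types, 5 were tested, and CD3D, at 20.4 and 15.6 FPKM in EZH2 and 26.9, 35.2 and 19.3 FPKM in the inputs, was the highest, while ALB did not exceed 0.0632 FPKM in these libraries. As these are bulk libraries, fewer cells with an RNA and less RNA per cell cannot be told apart, and FPKM is relative, so that an RNA can also be higher because others are lower.

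Against input set 3, 2669 genes (10.5% of 25442 tested) were higher and 1952 (7.67%) lower in the EZH2 fRIP, counted where the change exceeded 1 log2 unit and its adjusted p was below 0.05 (limma across all 79 libraries, with Benjamini-Hochberg adjustment). The median over all genes was -0.07, the 1st percentile -1.99 and the 99th percentile 2.59. Genes called higher had a median log2 change of 1.47 in ezh2_1 and 1.67 in ezh2_2, and 1831 of the 2669 (68.6%) were higher in ezh2_2 than in ezh2_1. Genes called lower had medians of -1.34 and -1.36. With all 9 inputs in place of set 3, 2677 genes (10.5%) were higher and 2332 (9.17%) lower, and 2441 of the 2669 higher genes were shared (91.5% of the calls against set 3, 91.2% of those against 9 inputs). For lower genes the shared 1657 were 84.9% and 71.1%. In a fit of the 5 libraries alone, 2493 genes (9.8%) were higher and 1744 (6.85%) lower.

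**Figure D1:**
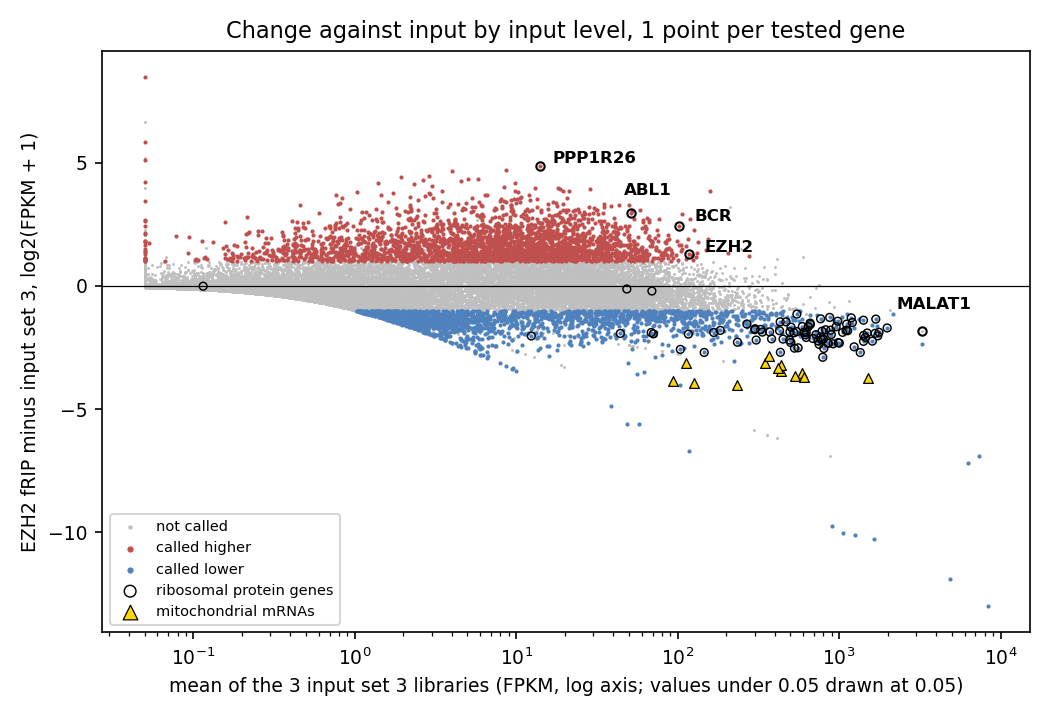
Log2 fold change of EZH2 over input set 3 (y axis, log2(FPKM + 1) scale) against the mean FPKM in input set 3 (x axis, log scale) for the tested genes, with genes called higher in red and lower in blue, open circles on ribosomal protein genes and on the genes named in the plot, and triangles for mitochondrial mRNAs. PPP1R26 stands at 4.85, the ribosomal protein genes lie mostly below 0 (median -1.90), and the triangles lie at -4.02 to -2.84.

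The direction varied with how abundant the RNA was in input set 3, whose values also enter the fold change. Across mRNAs the correlation with input level was -0.20 (mean of Spearman's rho of the 2 libraries), and -0.042 against input set 1. Among 13618 tested mRNAs, 1955 (14.4%) were higher and 817 (6.00%) lower. Of the 4606 mRNAs at 5 to 25 FPKM in the input, 972 (21.1%) were higher and 172 (3.73%) lower, with a median log2 fold change of 0.21. Of the 876 mRNAs over 100 FPKM, 22 (2.51%) were higher and 294 (33.6%) lower, with a median of -0.70. Long noncoding RNAs (lncRNAs) showed no excess of higher calls as a class: 419 of 5359 (7.82%) were higher and 382 (7.13%) lower, with a median of -0.09. At 5 to 25 FPKM in the input, 119 of 533 lncRNAs (22.3%) were higher, a share close to that of mRNAs at the same level, and 82 (15.4%) were lower. None of the 31 lncRNAs over 100 FPKM was higher and 18 (58.1%) were lower, with a median of -1.21. Of 5247 pseudogenes, 173 (3.30%) were higher and 647 (12.3%) lower, although pseudogenes can share reads with their parent genes.

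The mRNAs that led the EZH2 fRIP had a median of 10.1 FPKM in the input, beside 12.1 FPKM for all tested mRNAs. Among genes annotated as mRNA, with a mean of at least 5 FPKM and both EZH2 libraries above all 9 inputs, the 12 with the largest increase were 13.8-fold to 28.8-fold higher in EZH2 than in input set 3. That they stood above every input was part of how they were chosen, and EPPK1, a coding gene whose identifier the annotation lacks, would rank among them by its change of 4.68. PPP1R26, a regulatory subunit of protein phosphatase 1 encoded at chr9:138370925-138380739 on the plus strand, was at 367 and 505 FPKM in the EZH2 libraries and at 15.1, 12.5 and 14.5 FPKM in the inputs (log2 fold change 4.85 ± 0.23 SE, limma adjusted p = 2.16e-25). Both EZH2 libraries lay more than an order of magnitude above every input. CHST2, a sulfotransferase acting on sugar chains (chr3:142838613-142842856, plus strand), was at 281 and 313 FPKM against 16.8, 18.5 and 19.6 FPKM. CENPB, which binds a repeat sequence of centromeric DNA, was at 265 and 322 FPKM against 20.6, 19.4 and 18.4 FPKM.

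MYCL, a transcription factor of the MYC family, had 251 and 401 FPKM in EZH2 and 23.5, 19.6 and 20.3 FPKM in input set 3, with the largest standard error of the 12 (3.85 ± 0.49). MGAT3, a glycosyltransferase of the Golgi, had 100.2 and 145 FPKM in EZH2 and 4.11, 5.12 and 5.95 FPKM in the inputs. B3GALT6, a galactosyltransferase that helps build the linker of proteoglycans, had 127 and 172 FPKM against 8.0, 8.02 and 9.12 FPKM. The inputs of each lay close together, and ezh2_2 was the higher EZH2 library. ZBTB42, a zinc finger protein, was at 74.1 and 93.1 FPKM against 3.43, 2.30 and 2.93 FPKM, and PROB1, the lowest of the 12 in level, at 18.1 and 39.3 FPKM against 0.741, 0.841 and 1.52 FPKM. MFHAS1, FAM83H, TADA2B (an adaptor of the SAGA coactivator) and ORAI2 (a calcium channel subunit) completed the set. In 12 of 12, ezh2_2 was higher than ezh2_1. In a fit of the 5 libraries alone, the highest adjusted p among the 12 was 0.00995.

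**Figure D2:**
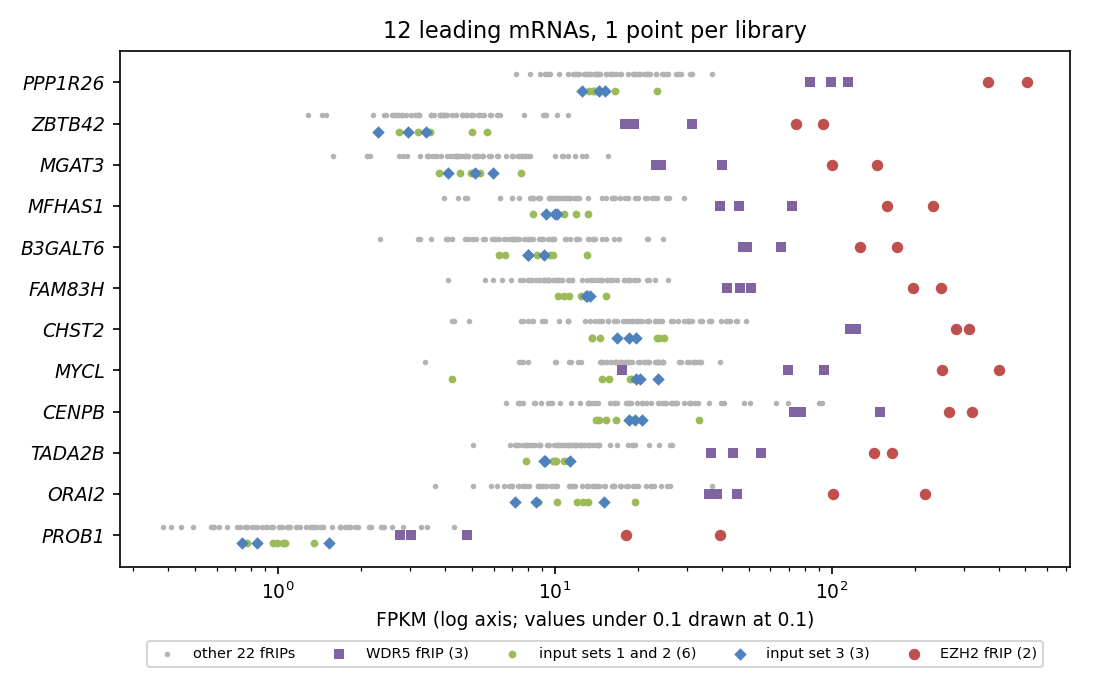
FPKM (log axis) of the 12 mRNAs with the largest increase, each point a library of EZH2 (red), WDR5 (purple squares), input set 3 (blue diamonds), input sets 1 and 2 (green) or the other 22 fRIPs (grey). In each row the 2 EZH2 points lie to the right of all others, from PPP1R26 at 367 and 505 FPKM to PROB1 at 18.1 and 39.3 FPKM.

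Among the 24 proteins these mRNAs were highest in EZH2. EZH2 had the highest mean FPKM of the 24 for all 12, and against the mean of the other 23 fRIPs their log2 fold changes were 3.44 to 4.51 (highest adjusted p = 6.21e-13, limma). WDR5, a scaffold of the MLL methyltransferase complexes, which methylate a different lysine of histone H3, had the next highest level in 12 of 12, with 98.9 FPKM for PPP1R26, 118 for CHST2 and 99.7 for CENPB as means of 3 libraries. For MYCL, 1 of the 3 WDR5 libraries lay within the range of the inputs. Over the 100 mRNAs with the largest increase, EZH2 was the highest of 24 in 100, and WDR5 was the highest of the remaining 23 in 67. WDR5 was the highest of the 23 for 586 of the 2669 genes called higher (22%) and for 810 of all 25442 genes (3.18%). Against the other 23 fRIPs together, 2206 genes (8.67%) were higher and 1505 (5.92%) lower in EZH2. After each library was centred on its median these counts were 2718 and 845. Of the 2669 genes higher than input, 2053 (76.9%) were also higher than the other fRIPs, and 1675 (62.8%) had their highest mean in EZH2, beside 1991 (7.83%) of all genes. The input and fRIP contrasts share the EZH2 libraries.

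SUZ12, the core partner of EZH2 in PRC2, had low levels of the leading mRNAs. PPP1R26 averaged 10.2 FPKM in the SUZ12 fRIP and CENPB 7.25 FPKM, both below the input, and the 12 mRNAs were higher in EZH2 than in SUZ12 by log2 fold changes of 4.10 to 5.38. In the direct comparison 3341 genes (13.1%) were higher in EZH2 and 4722 (18.6%) lower (limma). The antibodies, and the 2 against 3 libraries, differ between these fRIPs, and the part of the antibodies in this difference was not tested.

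The RNAs that encode PRC2 did not move together. Of 13 tested PRC2 genes 4 were higher (30.8%, beside 10.5% of all genes and 14.4% of all mRNAs) and none passed as lower. The median log2 fold change was 0.14 (all genes, -0.07). EZH2 mRNA itself (chr7:148504349-148581413, minus strand) was at 245 and 337 FPKM in the fRIP for its own protein and at 119.8, 124 and 109.8 FPKM in input set 3 (1.28 ± 0.22 SE, limma adjusted p = 2.02e-06). Both EZH2 libraries were above all 9 inputs, whose highest value was 124 FPKM. It averaged 327 ± 40.3 FPKM (SD, n = 3) in the SUZ12 fRIP and 291 ± 65.1 FPKM (SD, n = 2) in the EZH2 fRIP, and the difference of -0.18 on the log2 scale did not pass the test (adjusted p = 0.56, limma).

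JARID2, which recruits PRC2 to chromatin, was at 67.9 and 57.9 FPKM in EZH2 and 16.4, 17.3 and 14.3 FPKM in the inputs (1.91 ± 0.12 SE), its highest level among the 24 fRIPs, followed by 39.4 FPKM in WDR5 and 35 FPKM in SUZ12. C17orf96, a PRC2 accessory factor also known as EPOP, changed most of the list, with 20.5 and 27.9 FPKM in EZH2 and 2.20, 2.05 and 1.94 FPKM in input (3.03 ± 0.29 SE). It stood at 0.383 FPKM in the SUZ12 fRIP and 14.4 FPKM in WDR5. C10orf12, another accessory factor of the complex, was at 24.5 and 14.1 FPKM against 6.18, 6.54 and 6.05 FPKM.

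Other mRNAs of the complex had lower values without passing the fold threshold against input set 3. SUZ12 mRNA was at 28.6 and 30.3 FPKM in EZH2 and 44.4, 40.2 and 44.1 FPKM in input (log2 fold change -0.53, adjusted p = 0.0047, limma), below every input, and at 127 FPKM in the fRIP for its own protein. RBBP4 was at 67.9 and 76.5 FPKM against 119, 127 and 126 FPKM (-0.77). EZH1, the paralog of EZH2, was at 11.4 and 11.1 FPKM against 18, 22.1 and 28.7 FPKM (-0.94), and it passed as lower against input set 1 (-1.19) and without replicate 1 of input set 3 (-1.10). EED, at 44.2 and 33.5 FPKM against 47.1, 43.1 and 34.6 FPKM, overlapped the inputs.

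**Figure D3:**
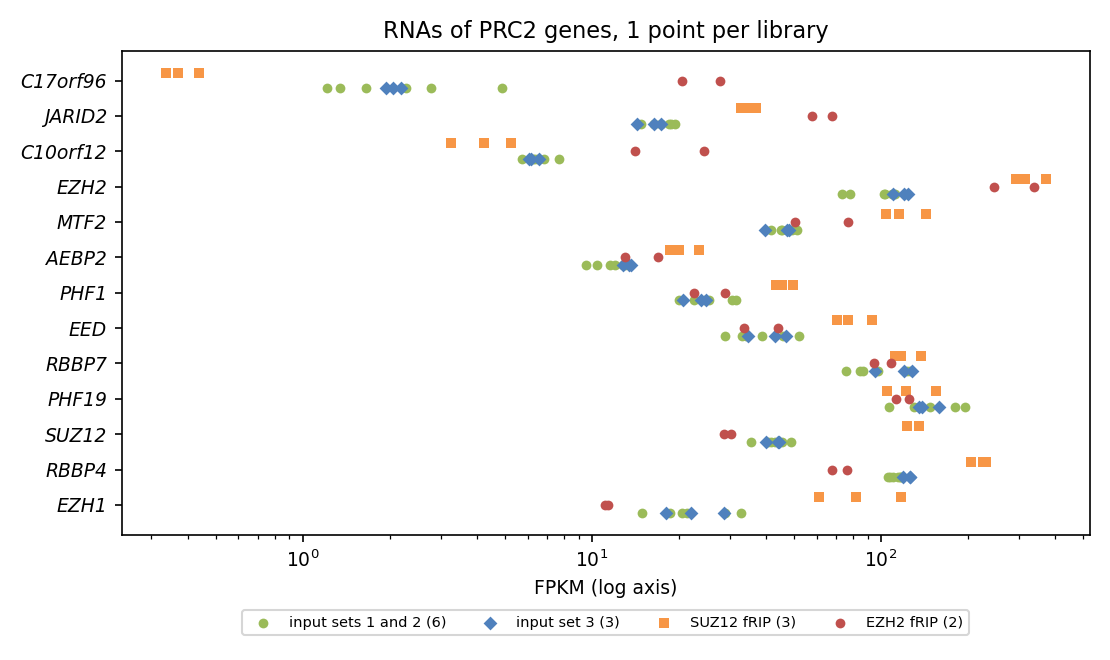
FPKM (log axis) of the PRC2 mRNAs in the EZH2 (red), SUZ12 (orange squares), input set 3 (blue diamonds) and remaining input (green) libraries, each point a library. EZH2, JARID2, C17orf96 and C10orf12 lie above all inputs in both EZH2 libraries, while SUZ12, RBBP4 and EZH1 lie below them.

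Polycomb repressive complex 1 (PRC1), which ubiquitinates histone H2A and binds the mark made by PRC2, showed a similar mix. Of 21 tested genes 6 were higher (28.6%, beside 14.4% of all mRNAs and 21.1% of those at 5 to 25 FPKM) and 1 lower. The median was 0.63, and against all 9 inputs 4 were higher. CBX2, a reader of the PRC2 mark, was at 31.0 and 46.7 FPKM in EZH2 and 8.50, 8.28 and 8.20 FPKM in input (2.07 ± 0.29 SE). PHC2 had a log2 fold change of 1.74, KDM2B 1.21, BCOR 1.09 and CBX6 1.02. BCOR fell short of the fold threshold against all 9 inputs, at 0.95. PHC3 was the gene called lower, at 6.60 and 8.71 FPKM against 15.1, 18.7 and 15.8 FPKM (-1.02), a call that was lost against input set 2 (-0.97) and after centring (-0.96).

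Among the methyltransferases of the opposing KMT2 group, which act on another lysine of histone H3, 2 of 7 were higher and none lower, with a median of 0.52. The 28.6% higher stood beside 10.5% of all genes and 14.4% of all mRNAs. KMT2D was at 132 and 147 FPKM in EZH2 and 36.6, 34.4 and 33.6 FPKM in input (1.97 ± 0.22 SE), and SETD1B had a log2 fold change of 1.36.

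The lncRNAs that have been linked to PRC2, or that are abundant in the nucleus, did not share a direction. Of 11 tested, 2 were higher and 2 lower (18.2% each, beside 7.82% and 7.13% of all lncRNAs), with a median of -0.73. These shares were close to those of lncRNAs at 25 to 100 FPKM in the input, of which 18.9% were higher and 14.4% lower. Against all 9 inputs 3 of the 11 were higher and 3 lower. LINC00657 (NORAD), a cytoplasmic lncRNA that binds Pumilio proteins, was at 319 and 579 FPKM in EZH2 and 68.5, 65.4 and 64.7 FPKM in input (2.68 ± 0.17 SE), and WDR5 had the highest mean of the 24 fRIPs, at 581 FPKM. TUG1 was at 124 and 193 FPKM against 50.4, 50.7 and 45.7 FPKM (1.64 ± 0.16 SE). The annotation used here classes TUG1 as protein coding.

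GAS5, which hosts snoRNAs, was lower, with 194 and 245 FPKM in EZH2 and 629, 549 and 738 FPKM in input (-1.54 ± 0.22 SE), as was NEAT1, the scaffold of paraspeckles, with 38.4 and 33.4 FPKM against 95.0, 105 and 73.4 FPKM (-1.31 ± 0.29 SE), though not against input set 2 (-0.92). MALAT1, a lncRNA of nuclear speckles, was at 753 and 1102 FPKM in EZH2 and 3151, 3235 and 3372 FPKM in the inputs. Its groups did not overlap, but its spread over the 79 libraries was large, and the change of -1.84 ± 1.47 SE did not pass (adjusted p = 0.38, limma). In the fit of the 5 libraries alone its adjusted p was 0.028. H19, an imprinted lncRNA, was at 45.5 and 33.8 FPKM against 39.5, 22.2 and 27 FPKM in set 3 (0.43, adjusted p = 0.64, limma), and its change was 2.65 against input set 1, so that its value turned on which input was used. KCNQ1OT1, an imprinted lncRNA, was at 0.460 and 0.585 FPKM against 1.35, 1.69 and 1.88 FPKM, with a change of -0.79 that fell short of the fold threshold, but it was lower against all 9 inputs (-1.14) and with a pseudocount of 0.1 (-1.48).

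Less known lncRNAs led the class. LINC00205 was at 43.3 and 96.2 FPKM in EZH2 and 3.06, 2.65 and 3.34 FPKM in input (4.03 ± 0.28 SE), in an entry that holds 1 of its 3 isoforms. RP11-495K9.9 had 95.1 and 115 FPKM against 4.84, 5.64 and 3.27 FPKM, and RP11-214O1.2 had 69.4 and 57.7 FPKM against 3.34, 4.21 and 2.85 FPKM. RP11-68I3.2 had 83.1 and 139 FPKM against 1.74, 2.10 and 8.13 FPKM, with a larger error (4.67 ± 0.94 SE). EZH2 had the highest level of the 24 fRIPs for each of these 4.

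Among genes that the annotation does not class as mRNA or lncRNA, EPPK1, a very large cytoskeletal linker protein whose identifier it lacks, was at 191 and 317 FPKM in EZH2 and 7.75, 7.99 and 10.3 FPKM in input (4.68 ± 0.37 SE). RP11-54F2.1 was at 36.2 and 99.9 FPKM against 1.89, 1.56 and 2.34 FPKM. RP11-927P21.4, annotated as a pseudogene of 96 bases at chr17:62774960-62775055 (minus strand), was at 392 and 314 FPKM in EZH2 and listed at 0 in the 3 inputs of set 3, but reached 88.7 FPKM among the 9 inputs and was not called against input set 2. AP001579.1 was at 38.1 and 29.1 FPKM, was listed at 0 in the same inputs, reached 10.0 FPKM among the 9 and was not called against input set 1. The reverse was seen for a lncRNA, RP11-298J23.9, listed at 0 in both EZH2 libraries and at 520.1, 1445 and 1812 FPKM in input, a call lost without either EZH2 library. Estimates of transcripts this short can fail, so that a listed 0 is not a measured absence.

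The strongest depletion was of mitochondrial RNAs, which are made and translated inside mitochondria. All 13 mRNAs encoded by the mitochondrial genome were lower, with log2 fold changes of -4.02 to -2.84 and a median of -3.54, and 12 of them were the 12 mRNAs with the largest decrease. MT-ATP6, a subunit of ATP synthase, was at 12.6 and 14 FPKM in EZH2 and 228, 262 and 206 FPKM in input (-4.02 ± 0.28 SE, 16.2-fold lower). MT-CO3, a subunit of cytochrome oxidase, was at 105 and 123 FPKM against 1482, 1582 and 1472 FPKM (-3.72 ± 0.27 SE). Nuclear copies of mitochondrial sequence can share reads with these genes. EZH2 ranked 21 to 24 of the 24 fRIPs for these 12, and against the mean of the other 23 fRIPs their log2 fold changes were -2.41 to -1.70.

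Against the SUZ12 fRIP the same 12 differed less, with log2 fold changes of -1.39 to -0.39, not all of which passed the test (highest adjusted p = 0.29, limma). In summed terms, mitochondrial mRNAs made up 0.106% and 0.127% of mRNA FPKM in EZH2, 1.16% to 1.39% in set 3 and 1.16% to 1.59% over the 9 inputs (exact permutation test, two-sided, p = 0.0182 against 9 inputs, and p = 0.1 against 3, each the smallest these numbers allow). This test, here and below, takes the 9 inputs as exchangeable, although they come in 3 sets. Of 15 mitochondrial tRNAs and rRNAs 7 were lower (46.7%, beside 7.67% of all genes) and none higher, with 5 lower in the fit of the 5 libraries alone and 10 against all 9 inputs. In both EZH2 libraries 12 of the 15 were listed at 0, but only 5 of these 12 were above 0 in every input of set 3. The calls of MT-TS2, MT-TC, MT-TL2, MT-TP and MT-TG were each lost when a library was left out. MT-TY, a tRNA at 5777, 10434 and 8747 FPKM in input, was listed at 0 in both EZH2 libraries.

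Ribosomal protein mRNAs were depleted almost without exception. Of 84 tested genes 81 were lower (96.4%, beside 7.67% of all genes and 33.6% of mRNAs over 100 FPKM) and none higher, with a median of -1.90. Against the other 23 fRIPs 38 were lower, with a median of -0.93. In the input comparison the 3 not called were RPL3L, RPL7L1 and RPL39L, paralogs of the standard proteins. RPLP1, of the stalk of the large subunit, was at 116 and 96.1 FPKM in EZH2 and 751, 790.4 and 837 FPKM in input (-2.90 ± 0.20 SE). RPS28, of the small subunit, was at 21.3 and 21.9 FPKM against 136, 138 and 164 FPKM (-2.70 ± 0.28 SE). The list made up 3.71% and 3.84% of mRNA FPKM in EZH2 and 11.4% to 14.1% in the 9 inputs (exact permutation test, two-sided, p = 0.0182 against 9 and p = 0.1 against the 3 of set 3). Compared with the SUZ12 fRIP, RPL11 differed by 0.60 on the log2 scale (adjusted p = 0.0058, limma) and RPS18 by 0.30 (adjusted p = 0.25), both with the higher value in EZH2. Many ribosomal protein genes have near-identical pseudogenes, so that single values are uncertain.

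Other housekeeping groups had fewer lower members, and their counts depended on the input set. Nuclear genes of the respiratory chain had 54 of 86 lower (62.8%, beside 7.67% of all genes) and 2 higher, with a median of -1.23. Against input set 1, 14 were lower, with a median of -0.65, where 3179 of all 25442 genes were lower, and against the other 23 fRIPs 6 of 86 were lower (5.92% of all genes). COX7C was at 118 and 105 FPKM in EZH2 and 532, 497 and 535 FPKM in input (-2.22 ± 0.29 SE). The higher calls were NDUFA4L2 (1.32) and a low entry that shares its symbol with SDHD, whose main entry was at 19.0 and 20.6 FPKM against 50.2, 53.3 and 46.3 FPKM (-1.29). Proteasome subunits had 8 of 37 lower (21.6%, beside 33.6% of the mRNAs over 100 FPKM) and none higher, with a median of -0.72. Against input set 1, 1 was lower (median -0.21), and against the other 23 fRIPs none. The largest decrease was that of PSMA2, at 68.0 and 65.0 FPKM against 161, 174 and 158 FPKM (-1.29).

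**Figure D4:**
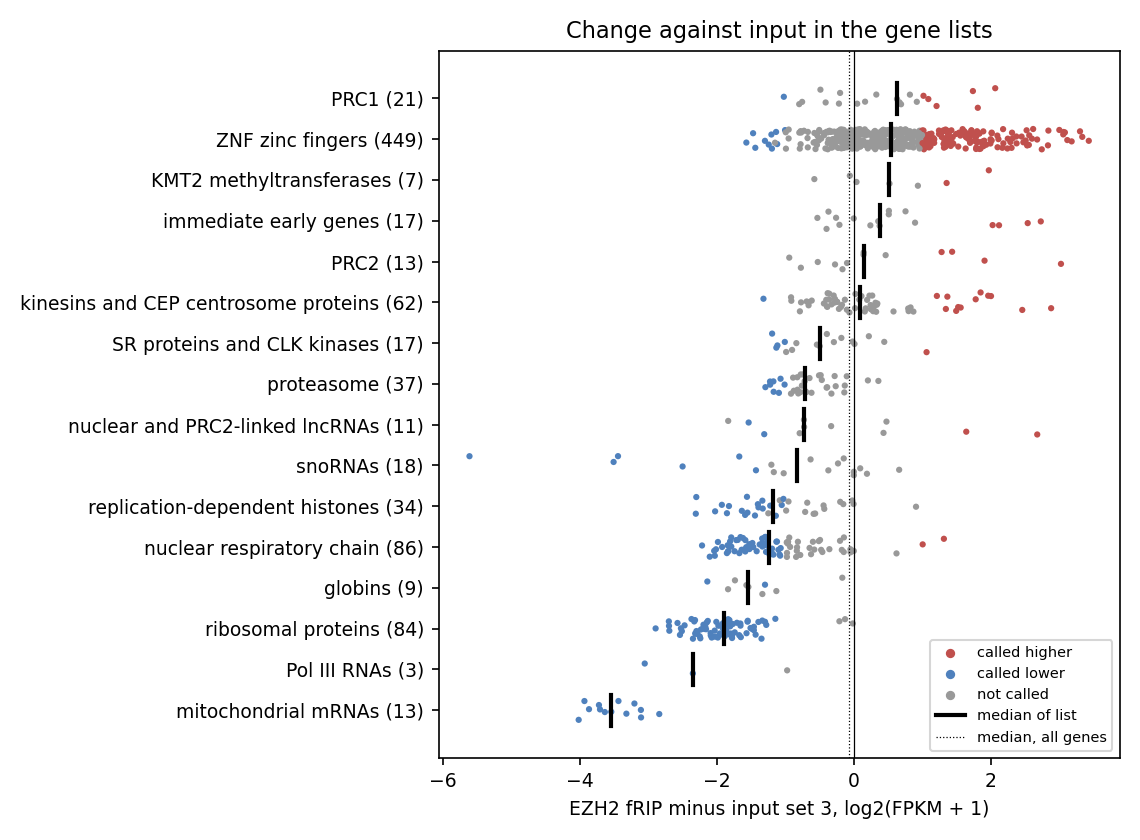
Log2 fold change of EZH2 over input set 3 (log2(FPKM + 1) scale) for the tested genes of each list, each point a gene, with a thick bar at the median of the list and a dotted line at the median of all genes. Ribosomal protein genes (median -1.90) and respiratory chain genes (median -1.23) lie mostly below 0, while ZNF genes (median 0.54) and PRC1 genes (median 0.63) lie mostly above it.

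Several small noncoding RNAs were lower too, although libraries of this kind are known to count short RNAs poorly. Of 3 RNAs made by RNA polymerase III 2 were lower (66.7%, beside 7.67% of all genes and 33.6% of mRNAs over 100 FPKM): RN7SL1, the RNA of the signal recognition particle, at 24.9 and 26.7 FPKM against 269.7, 174 and 231 FPKM (-3.05), and RPPH1, the RNA of ribonuclease P, at 601 and 672 FPKM against 3169, 2928 and 3689 FPKM (-2.35). Against the mean of the other 23 fRIPs the log2 fold changes were -0.71 for RN7SL1 and 0.65 for RPPH1, so that RPPH1 was not low among the fRIPs. Of 18 snoRNAs and related RNAs 6 were lower (33.3%, beside 7.67% of all genes) and none higher, with a median of -0.83. SCARNA9, which guides modification of spliceosomal RNAs, was at 3.81 and 5.21 FPKM in EZH2 and 70.4, 55.6 and 58.7 FPKM in input (-3.51 ± 0.37 SE), the lowest mean of the 24 fRIPs. RNU11, a minor spliceosomal RNA, was called lower at 20.2 and 0 FPKM against 82.8, 48.7 and 37 FPKM (-3.55, adjusted p = 0.028, limma), and the call was lost without ezh2_2 (adjusted p = 0.63) and in the fit of the 5 libraries alone (adjusted p = 0.15).

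Replication-dependent histone mRNAs, short and without a poly(A) tail, had 19 of 34 lower (55.9%, beside 6.00% of all mRNAs and 33.6% of those over 100 FPKM) and none higher, with a median of -1.18. HIST1H4C was at 42.4 and 57.8 FPKM in EZH2 and 234, 240.1 and 272 FPKM in input (-2.30 ± 0.30 SE). Against all 9 inputs 5 were lower, with a median of -0.59, and against input set 1 the median was 0.34, so that the direction of the histones depended on the input set.

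Genes for ZNF zinc finger proteins, most of them DNA-binding repressors with their fingers in a long last exon, had 141 of 449 higher (31.4%, beside 14.4% of all mRNAs) and 10 lower, with a median of 0.54. Their median was 607 bases per exon, and 31.1% of the quintile of mRNAs with the most bases per exon were higher. Of mRNAs at 5 to 25 FPKM in the input, 21.1% were higher. ZNF446 was at 91.7 and 98.6 FPKM in EZH2 and 8.12, 7.24 and 8.37 FPKM in input (3.43 ± 0.22 SE). ZNF263 was at 193 and 215 FPKM against 19.1, 22.7 and 16.4 FPKM (3.34 ± 0.20 SE). The family was not uniform, since ZNF493 was at 5.64 and 8.27 FPKM against 21.8, 22.3 and 22.8 FPKM (-1.57 ± 0.24 SE). Kinesins and CEP centrosome proteins had 12 of 62 higher (19.4%, beside 14.4% of all mRNAs) and 1 lower, with a median of 0.10. CEP170B, at 25.5 and 27.2 FPKM against 2.59, 2.84 and 2.70 FPKM (2.88), led this list, and CEP290 was the gene called lower (-1.32).

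Genes induced early after a stimulus had 4 of 17 higher (23.5%, beside 14.4% of all mRNAs and 21.1% of those at 5 to 25 FPKM) and none lower, with a median of 0.38. IER2, an immediate early regulator, was at 166 and 197 FPKM in EZH2 and 25.9, 28.9 and 24.5 FPKM in input (2.73 ± 0.16 SE). JUND, a subunit of the AP-1 factor, was at 250.2 and 232 FPKM against 37.7, 48.0 and 37 FPKM (2.54 ± 0.27 SE), and JUN and IER5 had log2 fold changes of 2.12 and 2.03. FOS and EGR1 overlapped the inputs. SR splicing factors and CLK kinases, whose pre-mRNAs often keep introns, had 4 of 17 lower (SRSF2, SRSF7, SRSF10 and SRSF11) and 1 higher (1 of 2 entries for SRSF8, which share a symbol), with a median of -0.50. The 23.5% lower stood beside 6.00% of all mRNAs. The higher call was lost against each other choice of input and in the fit of the 5 libraries alone, that of SRSF7 against input set 1 and without ezh2_2, and that of SRSF11 after centring and without ezh2_1 or replicate 1 of input set 3.

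Markers of the K562 line split. Of 13, 6 were higher (46.2%, beside 10.5% of all genes and 14.4% of all mRNAs) and 1 lower, with a median of -0.62. Against all 9 inputs 6 were higher and none lower, and in the fit of the 5 libraries alone 6 were higher and 5 lower. ABL1, a tyrosine kinase, was at 422 and 401 FPKM in EZH2 and 51.7, 53.0 and 50.8 FPKM in input (2.97 ± 0.16 SE), and BCR at 595 and 512 FPKM against 107, 105 and 94.2 FPKM (2.43 ± 0.22 SE). K562 carries a fusion of these genes, and gene-level values do not separate the fusion from the normal transcripts. EZH2 had the highest mean of the 24 fRIPs for both, with NUP98 next at 347 ± 116 FPKM for ABL1 and 423 ± 124 FPKM for BCR (SD, n = 3), and the highest NUP98 library, at 477 FPKM for ABL1 and 561 FPKM for BCR, lay above both EZH2 libraries for ABL1 and above ezh2_2 for BCR.

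TAL1, a factor of erythroid and stem cells, was at 173 and 229 FPKM in EZH2 against 48.9, 47.0 and 52.6 FPKM (1.99), and LMO2, NFE2 and KLF1 were also higher (1.45, 1.24 and 1.08), KLF1 not against input set 2 (0.99). Globin mRNAs had 2 of 9 lower (22.2%, beside 6.00% of all mRNAs) and a median of -1.54, but in the fit of the 5 libraries alone 7 of 9 were lower, and against input set 1 none. The most abundant, HBG2, was at 382 and 269 FPKM against 949, 1014 and 898 FPKM and did not pass (adjusted p = 0.14, limma) except in the fit of the 5 libraries alone (adjusted p = 0.011), and HBG1 and HBG2 are near-identical copies.

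Features of the transcript went with the change. Across the 13566 mRNAs with a sequence, Spearman's rho between the log2 fold change and transcript length was 0.35 in ezh2_1 and 0.29 in ezh2_2, with the mean number of bases per exon 0.30 and 0.35, with GC content 0.25 and 0.28, with GGGG per kb 0.26 and 0.31, and with exon number 0.03 and -0.08. These are descriptions across genes, which are not independent, and the points share the input libraries. Changes among the input libraries themselves correlated with length at -0.11 to 0.13, with GC content at -0.14 to 0.17 and with bases per exon at -0.04 to 0.04. For lncRNAs (5344 genes) rho was 0.31 and 0.27 with GC content and 0.09 and 0.15 with length.

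EZH2 was among several of the 24 proteins with a high correlation with long exons. Compared against the 9 inputs, EZH2 ranked 1 of 24 for bases per exon (0.303), closely followed by WDR5 (0.295), HUR (0.283) and IMP1 (0.264). The 2 EZH2 libraries differed from each other by more than these gaps (0.30 and 0.35 against input set 3). EZH2 ranked 6 for length, 4 for GC content and 19 for exon number (-0.03), for which SUZ12 ranked 1 (0.51). For GGGG per kb it ranked 4 (0.29), behind HNRNPH with 0.43, CBP with 0.38 and CTCF with 0.32. Of the quintile of mRNAs with the most bases per exon (over 560 bases), 843 of 2713 (31.1%) were higher and 97 (3.58%) lower, with a median log2 fold change of 0.42. Of the quintile with the fewest, 94 of 2714 (3.46%) were higher and 319 (11.8%) lower, with a median of -0.25. The spread was wider when both features were crossed. In the lowest quartile of GC content and lowest quintile of bases per exon the median was -0.50 with 0.392% of 510 mRNAs higher, and in the highest quartile and quintile it was 1.03 with 263 of 526 higher. Within quartiles of GC content rho with bases per exon was 0.28 to 0.45, with length 0.35 to 0.48, and with GGGG per kb 0.13 to 0.17.

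**Figure D5:**
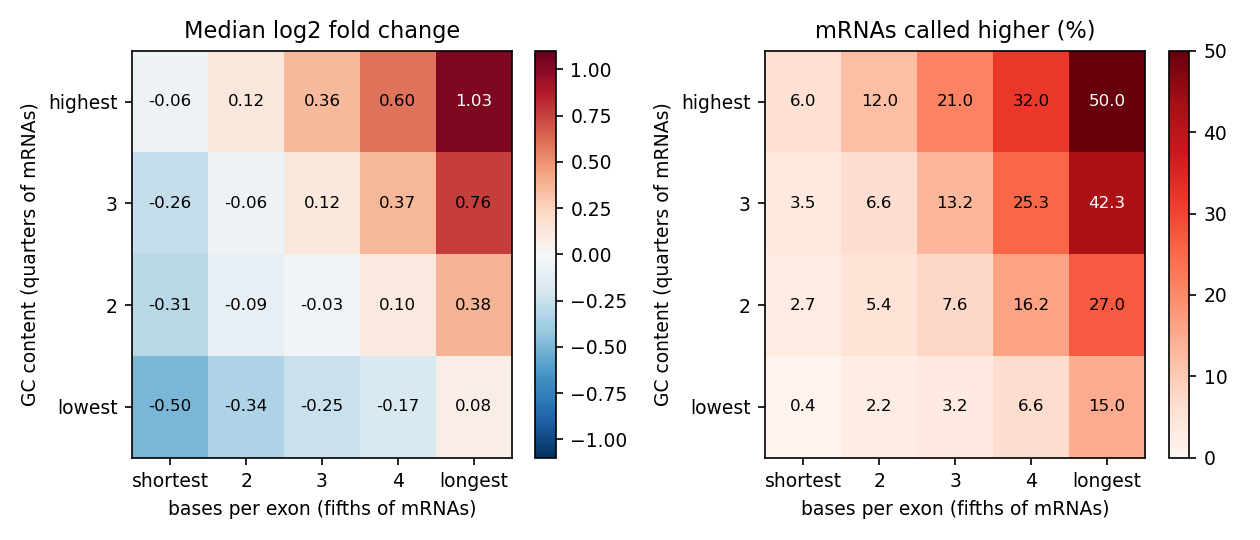
Median log2 fold change of EZH2 over input set 3 (left) and percent of mRNAs called higher (right) for mRNAs grouped by quintiles of bases per exon and quartiles of GC content, each cell a group of genes. The medians run from -0.50 for short exons and low GC to 1.03 for long exons and high GC, and the share called higher from 0.392% to 50%.

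The leading mRNAs had this build. Their median length was 4328 bases with 2247 bases per exon and a GC content of 61.1%, against 2105 bases, 275 bases per exon and 49.3% for all tested mRNAs. Ribosomal protein mRNAs, at the other end, had medians of 651 bases, 129 bases per exon and 49.7% GC. The coding sequence lay in 1 exon in 7 of the 12 leading mRNAs, among them PPP1R26 (3627 coding bases), CHST2, CENPB and ZBTB42. Among all mRNAs with their coding sequence in 1 exon, 313 of 1027 (30.5%) were higher, and among the remainder 13% of 12496. Where the longest coding exon exceeded 1000 bases, 586 of 1569 mRNAs (37.3%) were higher and 26 (1.66%) lower, with a median of 0.67, whereas 11.3% of the mRNAs with shorter coding exons were higher.

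A stricter pattern of 4 runs of GGG with gaps of 1 to 7 bases, read on the transcript strand as a form that can fold into a G-quadruplex, was present in 19.7% of tested mRNAs, 35.2% of those called higher and 4.62% of those called lower. As longer transcripts hold more matches, it was also counted within length. In the longest quintile it was present in 43.5% of higher mRNAs and 30.7% of all, and in the shortest in 9.43% of 106 and 7.15%. The pattern was not counted within GC content, whose median was 54.4% in mRNAs called higher, 49.3% in all and 45.3% in those called lower. A match is a description of letters, and no folding was measured.

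The same contrasts were seen in each EZH2 library. The median log2(FPKM + 1) of the longest quartile of mRNAs minus that of the shortest was 1.10 and 1.00 in EZH2 and 0.29 to 0.58 in the 9 inputs. The same difference between the quartiles with the most and the fewest bases per exon was -0.60 and -0.40 in EZH2 and -1.39 to -1.25 in the 9 inputs. That between GC-rich and GC-poor mRNAs was -0.46 and -0.32 against -1.23 to -0.99. For each of the 3, both EZH2 libraries lay outside the range of all 9 inputs (exact permutation test, two-sided, p = 0.0182 against 9 and p = 0.1 against 3). The 9 inputs were not alike across sets, with 0.57 to 0.58 for length in set 1 and 0.29 to 0.50 in sets 2 and 3. The p against 9 treats them as independent libraries. The share of lncRNAs in mRNA and lncRNA FPKM did not differ detectably, at 6.68% and 8.36% in EZH2 and 6.13% to 8.27% in the 9 inputs (exact permutation test, two-sided, p = 0.49).

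At the level of isoforms, 6374 of 104506 (6.10%) were higher and 5223 (5.00%) lower. Isoforms annotated as retaining an intron, of genes that encode proteins, were mostly not enriched: 343 of 19088 (1.80%) were higher and 1419 (7.43%) lower, with a median of -0.27. Isoforms annotated as protein coding had 8.76% higher and 4.03% lower. Retained-intron isoforms made up 7.13% and 7.74% of the FPKM of these genes in EZH2 and 9.04% to 13.9% in the 9 inputs (exact permutation test, two-sided, p = 0.0727). Of PPP1R26 all 6 tested isoforms were higher. Of EZH2 mRNA 2 of 9 isoforms were higher and none lower, of JARID2 2 of 3, of ABL1 2 of 3, and of BCR 5 of 12 with 1 lower. TFRC, the transferrin receptor, had 6 of 15 isoforms lower, all of the retained-intron class. The FPKM of isoforms are split among overlapping transcripts by the estimation, and their error is not in the deposited values.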

How the data were processed

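RNA-seq of fRIP and input material was aligned by the authors with TopHat to hg19 after CASAVA 1.4, and the deposited gene and isoform tables hold FPKM per library from Cuffdiff and Cuffnorm. A deposited table of the authors' own comparisons (group values, test statistics, p-values) was not used. EZH2 replicates are biological replicates from separate lysates, per the study's methods.

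From these values log2(FPKM + 1) was computed, genes reaching 1 FPKM in 2 or more of the 79 libraries were tested, and limma 3.58.1 (R 4.3.3) with an intensity trend fitted 27 group means. Thus the spread of the 2 EZH2 libraries was pooled with that of the other groups. Other steps used scipy 1.17.1, numpy 2.4.6, pandas 2.3.3 and matplotlib 3.10.9 under Python 3.11.15. Standard errors are limma's. The fit was tested on simulated data: 97.1% to 100% of genes changed by 3 log2 units were recovered, 91.4% to 97.6% at 2 and 79.4% to 84.2% at 1.5, with 17 to 42 changed genes at each size and sign among the 25442 fitted. The changed genes were drawn only from those with a mean log2(FPKM + 1) above 2 in input set 3. The noise was independent and normal with each gene's pooled spread, as the fit assumes. Recovery of lower genes was not tested. The hg19 lift of GENCODE v44 held 46055 of the 48453 gene identifiers and gave classes, coordinates and sequences. Length, exon number and GC content were weighted over isoforms by input FPKM.

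Named genes were, among calls with a mean of at least 5 FPKM and both EZH2 libraries beyond all 9 inputs, the 12 mRNAs, 5 lncRNAs and 4 others with the largest change each way, all PRC2 genes, and the 3 members of each list most abundant in input. Other members of the lists were named after their values were seen. Some genes that the rule or the lists hold are not reported here. The members and lists were chosen with earlier results of these data known. Alternatives were other inputs, pseudocounts, filters, centring, the 5 libraries alone, a replicate block and each library left out.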

Additional observations from a re-analysis of the deposited data

How the results depend on the processing

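The count of higher genes stayed within 1.5 times of 2669 under every alternative run, at 2418 to 2961 with a library left out. The count of lower genes (1952) was 1787 to 1942 with a library left out, but 3339 with a pseudocount of 0.1 and 3179 against input set 1. Against the other 23 fRIPs, lower genes (1505) numbered 3455 with a pseudocount of 0.1 and 845 after centring, and lower isoforms numbered 9018 with a pseudocount of 0.1. The correlation across mRNAs with length (mean 0.32) was 0.21 against input set 1 and 0.37 for mRNAs of at least 5 FPKM, and that with input level (-0.20) was -0.042 and -0.32. Against input set 1 the change of HIST1H1E (0.16), SCARNA2 (0.35), COL1A2 (1.46) and the histone median (0.34) changed sign. The causes were not tested.

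Replicates of the same number did not deviate together (correlations of 0.053 and -0.094), so the numbers were not taken to pair the libraries. With a replicate block 2650 genes were higher and 1887 lower. Of 1784 comparisons for 119 named genes, 1686 kept their status as called or not called, 59 lost the call, 36 gained it and 3 reversed. Direction was compared only where the gene was called in the main fit or in the alternative. Depth limits the low values most, as 1 fragment weighs most in ezh2_2.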
